A study of Mus musculus with 8 samples.

Results

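The 40 genes described here encode the machinery that takes up glucose, splits it to pyruvate, turns pyruvate into lactate or passes it to the mitochondrion, and diverts glucose into the pentose phosphate pathway. They were chosen by name from the table of gene expression: 2 glucose transporters, 18 genes of the glycolytic steps, 5 genes of lactate formation and export, 8 genes of the pyruvate dehydrogenase complex and its kinases, and 7 enzymes of the pentose phosphate pathway. All 40 were found among the 39527 genes of the table, once each, and none held a value below 0. RNA came from group 2 innate lymphoid cells (ILC2s) sorted from epididymal visceral adipose tissue of male C57BL/6 mice, all wild-type and 14 weeks old. The normal-diet group (libraries N1 to N4) and the high-fat-diet group (libraries H1 to H4) held 4 libraries each, and the diets were given for 8 weeks from 6 weeks of age. Nothing in the labels ties a library to 1 animal or to a pool, so p-values measure only the spread between libraries, which may be technical.

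Glycolysis converts glucose into pyruvate in the cytosol and yields ATP without oxygen. Lactate dehydrogenase reduces pyruvate to lactate, which leaves the cell with a proton through monocarboxylate transporters, while the pyruvate dehydrogenase complex commits pyruvate to the tricarboxylic acid cycle and is switched off by its kinases. The pentose phosphate pathway branches from glucose 6-phosphate and supplies NADPH and ribose phosphate. Activated lymphocytes commonly raise glycolytic genes, and ILC2s of fat are also known as users of fatty acids.

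Levels are given as FPKM (fragment counts divided by gene length and library depth). In the deposited values the worth of 1 read also carries a factor of 0.863 to 1.18 that repeats every 10 rows and differs between libraries, so levels, shares and ratios set side by side hold only to within that factor. Where dividing it out changed a pattern, the value without it is given. The reads behind the values, recovered as whole numbers, came to 9005363 in H2 and to between 12272413 and 15752815 in the other 7 libraries. H2 and N2 lay at the ends of the first principal component of the tested genes (35.2 and -35.4, with the other libraries between -11.4 and 18.2). The 18 ILC2 markers examined (Gata3, Il1rl1, Klrg1 and others) were all at tested levels, and their summed level was 8931 to 10328 FPKM in H1 to H4, lowest in H2, against 11418 to 13481 FPKM in N1 to N4. Tpsb2, Cma1 and the other mast cell and basophil markers, 8 of 8 tested, were abundant as well, at a sum of 1618 FPKM in H2 and 3651 to 7802 FPKM in the other libraries.

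The 40 genes together took 1.08% to 1.25% of the recovered reads in N1 to N4 and 0.99% to 1.09% in H1 to H4. Their levels ran from 0.0247 FPKM (Pdk4 in N2) to 3397 FPKM (Ldha in N2). Ldha, which makes lactate from pyruvate, was the most abundant, at 2839 ± 630 FPKM (normal diet) and 2102 ± 304 FPKM (high-fat diet). Pairs of values with ± below give the mean and SD of the 4 normal-diet libraries first and of the 4 high-fat libraries second. Aldoa (aldolase), Pkm (pyruvate kinase), Eno1 (enolase) and Gapdh followed. At the other end, Hk3, a hexokinase of myeloid cells, and Pdk4, a kinase of pyruvate dehydrogenase that fasting and fatty acids induce in other tissues, were below 1 FPKM in every library. These 2 did not pass the filter of 1 FPKM in at least 4 libraries, and 38 genes were tested.

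**Figure D1:**
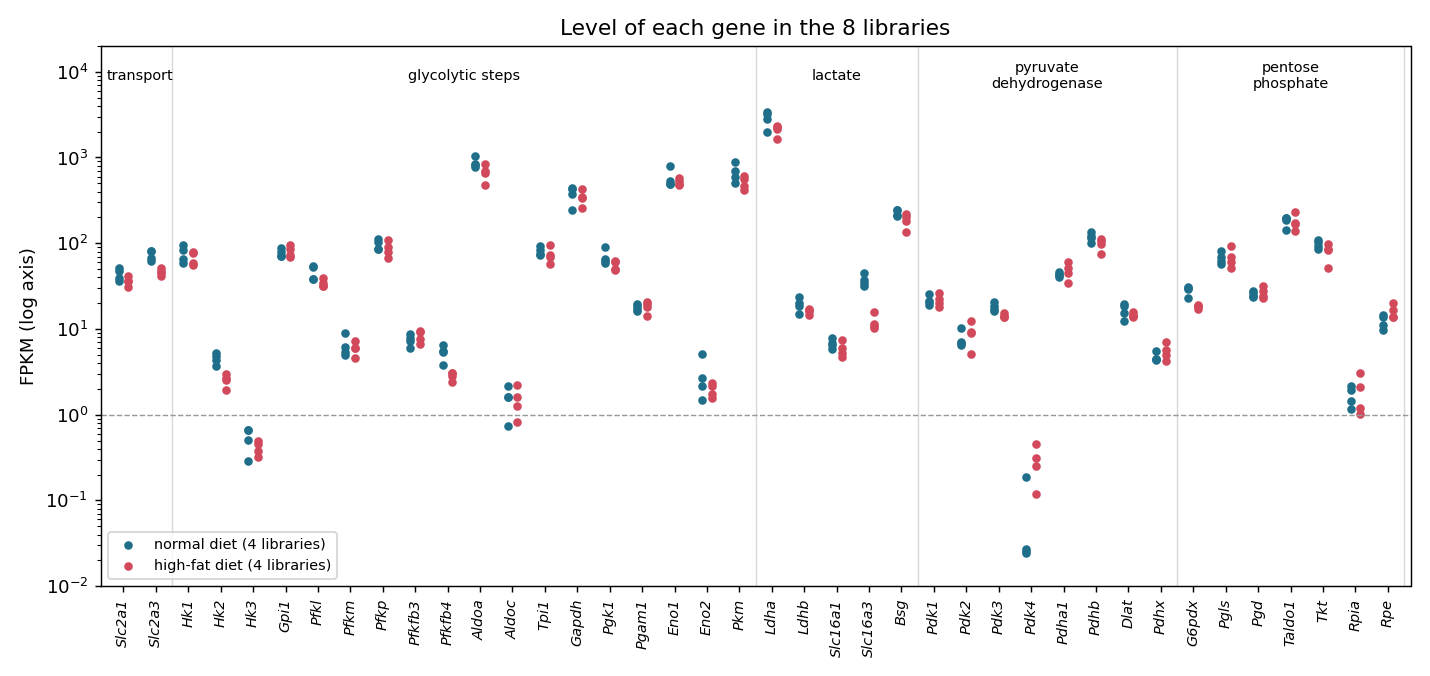
FPKM of the 40 genes in each library on a log axis, grouped by role (blue, normal diet, 4 libraries; red, high-fat diet, 4 libraries; dashed line, 1 FPKM). Ldha stands highest at 1665 to 3397 FPKM, and Hk3 and Pdk4 lie below the line in all 8 libraries.

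The comparison of the diets asked which of these transcripts differ in ILC2s after a high-fat diet. Of the 38 tested genes 3 fell, none rose and 35 did not pass. The genes that fell were Slc16a3, a lactate exporter, Slc2a3, a glucose transporter, and G6pdx, the entry enzyme of the pentose phosphate pathway. They make up 7.89% of the tested members, beside 2.86% of all 11483 tested genes called in either direction, 1.88% called lower (216 genes) and 0.975% called higher (112 genes; limma on log2(FPKM + 1), Benjamini-Hochberg adjusted p of at most 0.05). At an unadjusted p below 0.05 there were 9 members, where 18.1% of all tested genes lay below that value. The log2 fold change was below 0 for 29 of the 38 members (76.3%), where 52.1% of all tested genes were below 0, and its median was -0.17, where that of all tested genes was -0.02. That direction depended on the scaling. With recovered reads scaled to library totals, which put the median of all genes at 0.17, 19 of 38 members were below 0. In that fit 31.2% of all genes were below 0, and 28 members lay below the median of all genes. In 6 members (15.8%) every high-fat library lay below every normal-diet library, beside 6.76% of all tested genes, and in none did every high-fat library lie above, beside 4.31%. These 6 were Slc16a3, Slc2a3, G6pdx, Pfkfb4, Hk2 and Pdk3. With the row factor divided out there were 8 (8.96% of all tested genes): Pdk3 overlapped, and Aldoa, Pkm and Tkt no longer did. In bulk RNA, fewer cells that carry a transcript and less of it per cell cannot be told apart.

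**Figure D2:**
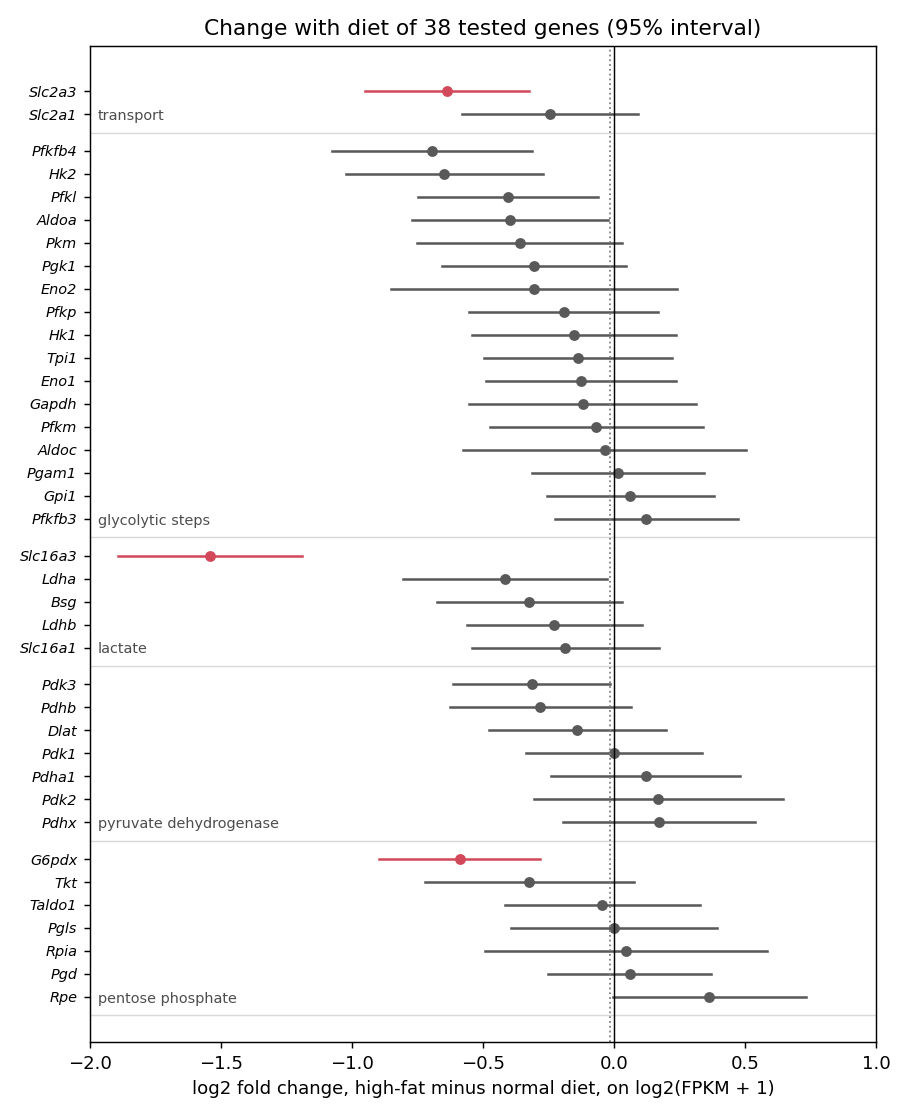
Log2 fold change (high-fat minus normal diet, on log2(FPKM + 1)) of the 38 tested genes by role, with the 95% interval from limma; red marks adjusted p of at most 0.05 and the dotted line the median of all tested genes (-0.02). Slc16a3 stands apart at -1.54, and of the other 37 genes only Slc2a3 and G6pdx are red.

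Of the glucose transporters, Slc2a3 fell and Slc2a1 did not pass. Slc2a3 (GLUT3, ENSMUSG00000003153, chromosome 6, 122727809 to 122801640 in mm10), a high-affinity transporter of neurons and lymphocytes, was at 62.4, 81.2, 81.4 and 66.9 FPKM in N1 to N4 and at 47.6, 44.9, 41.4 and 51.6 FPKM in H1 to H4. The diets did not overlap, with H4, the highest high-fat library, below N1, the lowest on the normal diet. On the log2 scale the difference was -0.64 (95% interval -0.95 to -0.32, limma adjusted p = 0.0290). Slc2a1 (GLUT1), the widely expressed transporter, was at 51.1, 47.6, 36.0 and 38.9 FPKM in N1 to N4 and at 36.0, 36.7, 42.0 and 30.8 FPKM in H1 to H4, with H3 above N3 and N4. Its log2 fold change of -0.24 had an interval from -0.58 to 0.09 (adjusted p = 0.446). Slc2a3 made up 62.6% ± 5.89 and 56.1% ± 5.37 of the summed level of the pair, and the libraries overlapped. Leaving out any of 5 libraries (N2, N3, H1, H3 or H4) ended this call, at fold changes of -0.69 to -0.58 and an adjusted p of at most 0.121. It also ended without both H2 and N2 (-0.57, adjusted p = 0.0551), with the replicate block (0.102), with no filter on low values (0.0862) and without the trend and robust options (0.0602).

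Among the glycolytic steps no gene of 17 tested passed, 14 had a fold change below 0, where 52.1% of all tested genes did, and the median was -0.15. With recovered reads scaled to library totals 8 of the 17 were below 0, where 31.2% of all genes were. With recovered reads at equal library medians 15 of the 17 were, where 51.5% of all genes were. The nearest to the threshold were a pair of low-abundance control points. Pfkfb4 (chromosome 9, 108991778 to 109032228), one of the bifunctional enzymes that set fructose 2,6-bisphosphate, the activator of phosphofructokinase, was at 6.46, 3.79, 5.52 and 5.40 FPKM in N1 to N4. In H1 to H4 it was at 2.42, 2.80, 3.10 and 3.07 FPKM. All high-fat libraries were thus below N2, the lowest on the normal diet. The fitted change was -0.69 (log2, interval -1.08 to -0.31, adjusted p = 0.0514), from 66 to 182 reads per library. It passed in 5 of 19 other settings, among them without N2 (-0.82, adjusted p = 0.0393) and without both H2 and N2 (-0.82, adjusted p = 0.0285). The fit without N2 was the only one with 1 library left out in which Pfkfb4 passed. Over those fits the limma adjusted p reached 0.138.

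Hk2 (chromosome 6, 82725025 to 82774454), the inducible hexokinase that binds mitochondria, was at 4.79, 4.34, 5.29 and 3.73 FPKM in N1 to N4 and at 2.56, 2.98, 2.66 and 1.96 FPKM in H1 to H4. Every high-fat value was below 3 FPKM and every normal-diet value above it. As deposited, its fold change of -0.65 (log2, interval -1.02 to -0.27, adjusted p = 0.0637) did not pass with all libraries. With the row factor divided out and all libraries kept, Hk2 passed (-0.62, limma adjusted p = 0.0341). It also passed without H2 (-0.71, adjusted p = 0.0437). The fit without H2 was the only one with 1 library left out in which Hk2 passed. Over those fits the limma adjusted p reached 0.165. Hk2 passed in 6 of 19 other settings, among them quantile normalization, library weights and recovered reads. Hk1, the constitutive hexokinase, supplied most of the hexokinase transcript: 93.5% ± 1.86 and 95.7% ± 1.30. Hk1 stood at 75.9 ± 17.2 and 67.7 ± 11.9 FPKM (log2 difference -0.15, interval -0.54 to 0.24, adjusted p = 0.726). The ratio of Hk1 to Hk2 was 12.2 to 25.6 in N1 to N4 and 18.7 to 39.96 in H1 to H4, and 12.8 to 21.6 and 22.1 to 34.5 with the row factor divided out. Hk3 was at 0.290 to 0.665 FPKM in N1 to N4 and 0.324 to 0.487 FPKM in H1 to H4, from 10 to 26 reads.

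Phosphofructokinase catalyses the committed step. Its platelet form Pfkp was the main transcript (65.1% ± 1.27 and 67.8% ± 3.96 of the 3 forms), followed by the liver form Pfkl (30.7% ± 1.58 and 27.5% ± 3.19) and the muscle form Pfkm (4.24% ± 0.80 and 4.78% ± 0.92). Pfkl was at 45.9 ± 8.80 and 34.1 ± 3.74 FPKM (log2 difference -0.40, interval -0.75 to -0.06, adjusted p = 0.192). Pfkm was at 6.34 ± 1.76 and 5.94 ± 1.11 FPKM and Pfkp at 97.0 ± 13.4 and 85.5 ± 17.6 FPKM. Pfkfb3, the partner of Pfkfb4 with the higher kinase activity, was at 7.45 ± 1.11 and 8.22 ± 1.31 FPKM (0.12, adjusted p = 0.754). Pfkfb4 made up 32.6% to 47.6% of the pair in the normal-diet libraries and 20.3% to 29.6% in the high-fat libraries, a difference that was not tested.

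The abundant enzymes of the lower pathway differed by less or with more spread. Aldoa, the most abundant gene of the glycolytic steps (chromosome 7, 126795234 to 126800751), was at 811, 1035, 777 and 846 FPKM in N1 to N4 and at 840, 480, 655 and 691 FPKM in H1 to H4. As deposited, H1 lay within the normal-diet range and H2 stood lowest. With the row factor divided out the diets did not overlap: H1, the highest high-fat library, was at 709 FPKM and N1, the lowest on the normal diet, at 794 FPKM. For Aldoa the log2 fold change was -0.40 (interval -0.77 to -0.02, adjusted p = 0.243), and -0.25 without H2 (adjusted p = 0.411). Aldoa passed in 2 of 20 other settings, those with recovered reads. Pkm, pyruvate kinase of muscle and lymphocytes, was at 668 ± 158 and 515 ± 88.1 FPKM (-0.36, adjusted p = 0.319), and -0.13 without both H2 and N2. The diets of Pkm did not overlap with the row factor divided out (H4 highest at 550 FPKM, N3 lowest at 587 FPKM). Pkm passed in 1 of 20 other settings, recovered reads at equal medians (limma adjusted p = 0.0245). Pgk1 (phosphoglycerate kinase) was at 69.3 ± 14.7 and 55.3 ± 6.68 FPKM. Eno1 stood at 576 ± 147 and 518 ± 49.8 FPKM, Gapdh at 374 ± 91.5 and 341 ± 71.0 FPKM, and Tpi1 (triose phosphate isomerase) at 80.4 ± 8.86 and 74.0 ± 16.4 FPKM. The fold changes of these last 3 lay between -0.14 and -0.12 and turned above 0 under quantile normalization (0.07, 0.05 and 0.02). Gpi1 (glucose phosphate isomerase) and Pgam1 (phosphoglycerate mutase) were at 77.2 ± 7.73 and 80.9 ± 11.8 FPKM and at 17.8 ± 1.57 and 18.1 ± 2.82 FPKM.

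The brain forms were scarce: Aldoc was at 1.54 ± 0.59 and 1.47 ± 0.59 FPKM, and Eno2 at 2.85 ± 1.60 and 1.96 ± 0.37 FPKM, with N3 highest. Aldoa supplied 99.8% ± 0.07 and 99.8% ± 0.15 of the aldolase transcript, and Eno1 supplied 99.5% ± 0.36 and 99.6% ± 0.05 of the enolase transcript. Several of these genes have processed copies elsewhere in the genome, and reads may be split between them. The table holds 9 such rows by name besides Eno1b (for Aldoa, Gapdh, Ldha, Pgam1 and Pgk1), with at most 22 reads in a library (both Gapdh copies hold values below 0), and Eno1b with 179 to 326 reads. Levels of Eno1, Gapdh, Pgam1, Pgk1, Ldha and Aldoa relative to other genes are therefore uncertain.

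Of the 5 genes of lactate formation and export, all had a fold change below 0 and 1 passed. Of all tested genes 52.1% were below 0 and 2.86% were called. Slc16a3 (MCT4, ENSMUSG00000025161, chromosome 11, 120948480 to 120960868), a low-affinity lactate exporter of glycolytic cells, was at 36.8, 44.8, 34.6 and 31.9 FPKM in N1 to N4. In H1 to H4 it was at 11.6, 15.7, 10.9 and 10.3 FPKM. The lowest normal-diet library was thus above the highest high-fat library by more than the range within either diet, from 606 to 2410 reads per library. On the log2 scale the difference was -1.54 (standard error 0.16, interval -1.89 to -1.19, adjusted p = 0.000584), and the mean was 3.06-fold higher on the normal diet. It passed in all 20 other settings, with fold changes between -1.73 and -1.45.

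**Figure D3:**
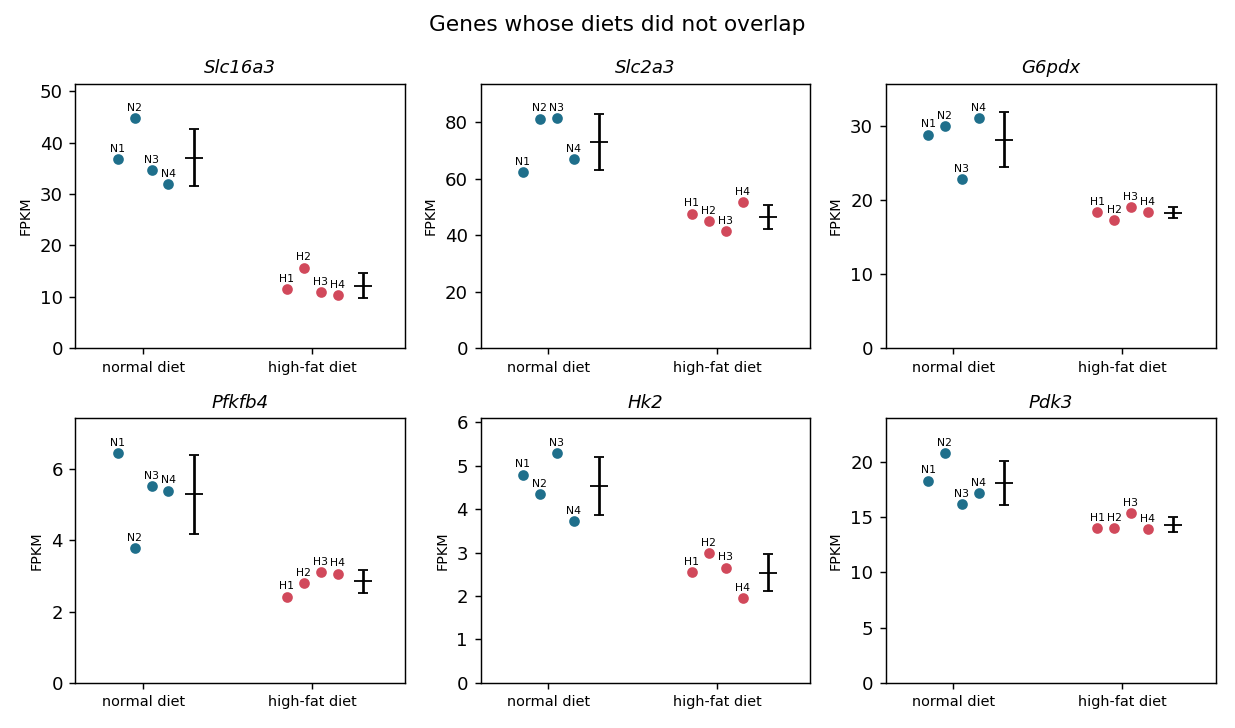
FPKM in each library (labelled points, blue for the normal and red for the high-fat diet) of the 6 genes whose diets did not overlap, with the mean and SD of 4 libraries beside them; each axis starts at 0. Slc16a3 shows the widest gap, between 15.7 FPKM in H2 and 31.9 FPKM in N4, and Pdk3 a gap between 15.3 FPKM in H3 and 16.1 FPKM in N3.

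Promoters were looked at singly for Slc16a3, G6pdx, Hk2 and Pfkfb4 only, and not for the other members. The bases before the RefSeq start are shown for Slc16a3 and Hk2. Counted from the far end of the 250 bases before the start, 236 and 250 bases came before any exon in these, against 0 in G6pdx and 126 in Pfkfb4. Both shown carry the letters ACGTG, the core of the sites that hypoxia-inducible factors and related factors bind. Capitals mark ACGTG or its reverse complement CACGT (build GRCm38.p6, printed 5′ to 3′ in the sense of the gene). The window of Slc16a3 (chr11:120948817-120949052, plus strand) stops 15 bases before the start, where an exon begins, and lies within the GENCODE gene, between exons of a longer transcript, and that of Hk2 (chr6:82774455-82774704, minus strand) ends at the base before it.
Slc16a3: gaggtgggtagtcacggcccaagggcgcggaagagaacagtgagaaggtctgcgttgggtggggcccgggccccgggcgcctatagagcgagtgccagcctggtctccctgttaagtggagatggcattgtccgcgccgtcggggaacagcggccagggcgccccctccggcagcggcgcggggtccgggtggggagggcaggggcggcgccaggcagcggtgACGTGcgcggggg
Hk2: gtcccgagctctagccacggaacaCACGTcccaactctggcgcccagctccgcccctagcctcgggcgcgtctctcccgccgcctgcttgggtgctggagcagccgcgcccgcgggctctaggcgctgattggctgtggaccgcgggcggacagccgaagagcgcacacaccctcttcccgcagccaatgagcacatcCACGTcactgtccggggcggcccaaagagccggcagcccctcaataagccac
In the 250 bases before each start, ACGTG on either strand occurred in 16.6% of 32851 promoters of the table and in 33.96% of the 53 promoters of the 38 members found there (15 members). Slc16a3 held 2 such matches, the nearer of them in the exon not printed, and Hk2 held 2, while Pfkfb4 and G6pdx held none. GCGTG, the other form of that core, was in 28.2% of all promoters and 56.6% of those of the members, with 1 match each in Pfkfb4 and G6pdx and 0 in Slc16a3 and Hk2. The letters GGGCGG were likewise in 32.7% and 56.6%, so that a higher share among the members was not particular to these cores. A match describes letters only. Slc2a3 and Bsg were not matched.

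The other genes of lactate handling did not pass. Ldha (ENSMUSG00000063229, chromosome 7, 46841475 to 46855627) was at 2818, 3397, 1964 and 3178 FPKM in N1 to N4 and at 2344, 1665, 2137 and 2263 FPKM in H1 to H4. Among the normal-diet libraries N3 lay below 3 of the high-fat libraries, so the diets overlapped. With the row factor divided out, N3 (2277 FPKM) lay below H1 and H4 only (2296 and 2314 FPKM). The log2 fold change of Ldha was -0.42 (interval -0.80 to -0.03, adjusted p = 0.241). Ldhb, the heart form, which favours the reverse reaction, was at 19.3 ± 3.51 and 16.2 ± 1.01 FPKM. Ldha supplied 99.3% ± 0.18 and 99.2% ± 0.07 of the lactate dehydrogenase transcript, and the ratio of Ldha to Ldhb was 105 to 189 in N1 to N4 and 113 to 139 in H1 to H4.

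Slc16a1 (MCT1), the higher-affinity transporter that moves lactate both ways, was at 6.72 ± 0.81 and 5.83 ± 1.19 FPKM (log2 difference -0.19, interval -0.54 to 0.17, adjusted p = 0.609). The ratio of Slc16a3 to Slc16a1 was 5.67, 6.52, 4.47 and 5.51 in N1 to N4 and 2.22, 3.33, 1.47 and 1.72 in H1 to H4. The high-fat values were all below the normal-diet values, and Slc16a3 made up 84.5% ± 2.07 and 67.2% ± 7.57 of the pair. No test was made of the ratio. Bsg (basigin), the chaperone that carries both transporters to the membrane, was at 228 ± 18.6 and 185 ± 37.99 FPKM (-0.32, interval -0.68 to 0.03, adjusted p = 0.323), and at -0.18 without H2.

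**Figure D4:**
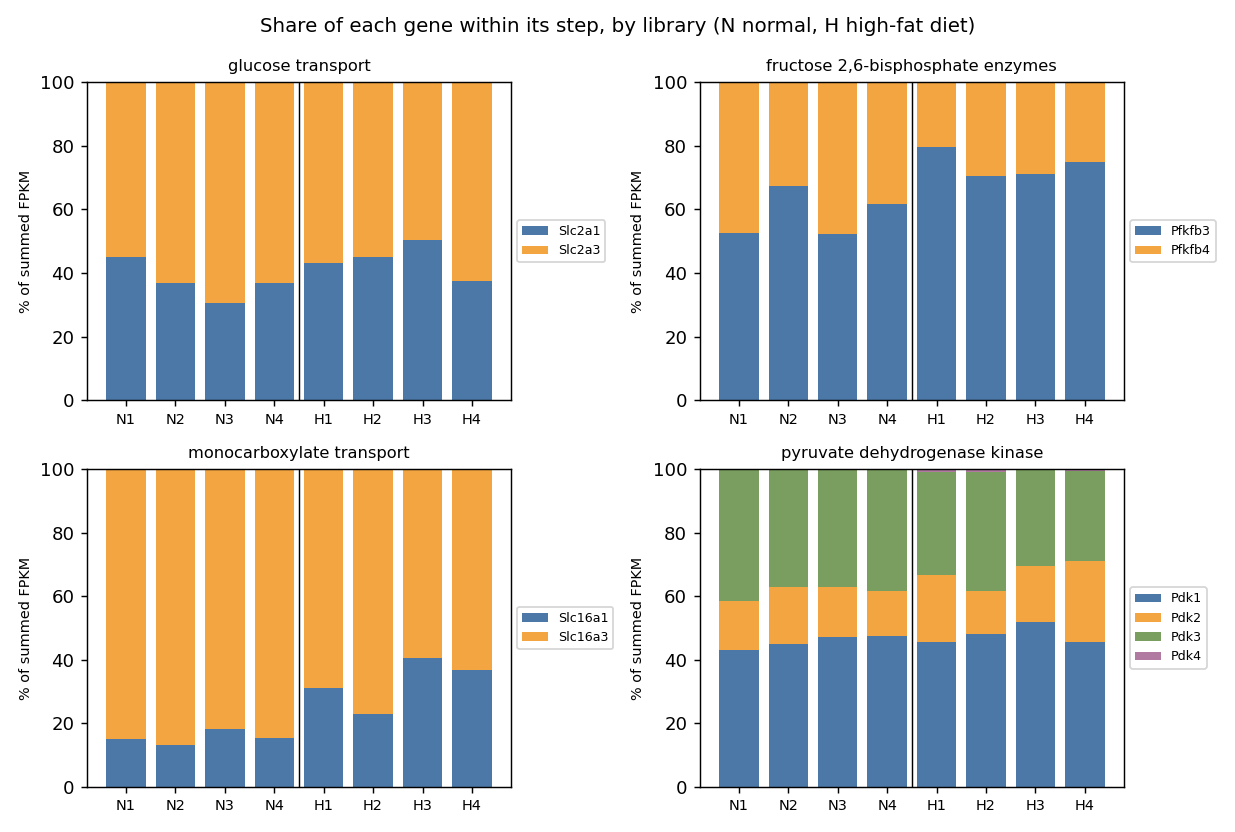
Share of each gene in the summed FPKM of its step, in percent, for each library (N1 to N4 normal, H1 to H4 high-fat diet, parted by the line). Slc16a3 made up 81.7% to 86.7% of its pair in the normal-diet libraries and 59.5% to 76.9% in the high-fat libraries, and Pfkfb4 was likewise a smaller share in all high-fat libraries.

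Among the genes that govern pyruvate entry none of 7 tested passed, beside 2.86% of all tested genes. There were 4 fold changes below 0 and 3 above, where 52.1% of all tested genes were below 0. Pdk3 (chromosome X, 93764607 to 93832201), a kinase that switches off the complex, was at 18.3, 20.8, 16.1 and 17.1 FPKM in N1 to N4 and at 14.0, 14.0, 15.3 and 13.9 FPKM in H1 to H4. The high-fat libraries were all lower, by a narrow margin between H3 and N3, but with the row factor divided out H4 (16.1 FPKM) lay above N3 (15.8 FPKM). Its log2 fold change was -0.31 (interval -0.61 to -0.02, adjusted p = 0.247). Pdk1, the kinase most expressed here, was at 21.5 ± 2.67 and 21.6 ± 3.62 FPKM (interval -0.34 to 0.33). Pdk2 was at 7.61 ± 1.71 and 8.93 ± 3.05 FPKM, and its fold change of 0.17 became 0.39 without H2 (adjusted p = 0.273). Pdk3 made up 38.3% ± 2.20 and 32.1% ± 3.93 of the 4 kinases, with the libraries overlapping, and 36.3% to 39.3% and 31.3% to 33.2% with the row factor divided out.

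Pdk4 lay under the filter, at 0.0259, 0.0247, 0.189 and 0.0271 FPKM in N1 to N4 and 0.455, 0.312, 0.117 and 0.253 FPKM in H1 to H4. These values rest on 1, 1, 8 and 1 reads in N1 to N4 and on 23, 10, 5 and 12 reads in H1 to H4. N3 lay above H3, so the diets overlapped, and no test was made. Among the subunits, Pdhb (E1 beta), the most abundant gene of this role, was at 115, 136, 101 and 121 FPKM in N1 to N4 and at 112, 74.1, 97.6 and 107 FPKM in H1 to H4. As deposited, only H2 and H3 lay below the normal-diet range (log2 fold change -0.28, adjusted p = 0.384). With the row factor divided out only H2 did (79.3 FPKM), and H3 (102 FPKM) lay above N1 (96.7 FPKM). Pdha1 (E1 alpha) was at 43.4 ± 2.54 and 48.2 ± 11.2 FPKM, Dlat (E2) at 16.4 ± 3.12 and 14.6 ± 0.82 FPKM and Pdhx, which anchors E3, at 4.70 ± 0.56 and 5.48 ± 1.16 FPKM. The intervals of their fold changes ran from -0.48 to 0.54.

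In the pentose phosphate pathway G6pdx fell and the other 6 genes did not pass, beside 2.86% of all tested genes called. G6pdx (glucose 6-phosphate dehydrogenase, ENSMUSG00000031400, chromosome X, 74409483 to 74429194), which makes the first NADPH of the oxidative branch, was at 28.9, 30.1, 22.8 and 31.1 FPKM in N1 to N4 and at 18.4, 17.3, 19.1 and 18.4 FPKM in H1 to H4. As deposited, the high-fat libraries lay close together, and N3 was the nearest to them. With the row factor divided out, H1 to H4 were at 19.2, 14.6, 18.8 and 21.4 FPKM, and N3 was at 22.4 FPKM. For G6pdx the log2 fold change was -0.59 (interval -0.90 to -0.28, adjusted p = 0.0407). Leaving out any of 6 libraries (N1, N2, N4, H1, H3 or H4) ended this call, at fold changes of -0.61 to -0.54 and an adjusted p of at most 0.105. It also ended without both H2 and N2 (-0.53, adjusted p = 0.0800), with the replicate block (0.108), with no filter (0.101) and without the trend and robust options (0.0658). The next enzymes of the oxidative branch, Pgls (lactonase) and Pgd (the second NADPH-forming step), were at 67.5 ± 9.83 and 68.6 ± 18.1 FPKM and at 25.3 ± 1.84 and 26.6 ± 3.72 FPKM. Their intervals ran from -0.39 to 0.39 and from -0.25 to 0.37.

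Taldo1 (transaldolase), the most abundant gene of the pathway, was at 187, 198, 143 and 199 FPKM in N1 to N4 and at 231, 139, 170 and 171 FPKM in H1 to H4. The lowest and the highest library were both on the high-fat diet. Tkt (transketolase) stood at 97.4 ± 10.8 and 79.4 ± 19.8 FPKM (log2 difference -0.32, adjusted p = 0.388), and its fold change was -0.13 without H2, which was at 51.4 FPKM against 83.2 to 98.0 FPKM in the other high-fat libraries. The diets of Tkt did not overlap with the row factor divided out (H4 highest at 85.0 FPKM, N3 lowest at 90.6 FPKM). Rpe, which interconverts pentose phosphates, had the highest fold change of the 38 tested members on the log2(FPKM + 1) scale, at 12.3 ± 2.27 and 16.1 ± 3.04 FPKM (0.36, adjusted p = 0.283). Rpia was at 1.03 to 3.06 FPKM over the 8 libraries, from 23 to 50 reads.

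H2 was the lowest of the high-fat libraries in 25 of the 38 tested members (65.8%), where it was lowest in 46.7% of all tested genes. N2 was the highest of the normal-diet libraries in 19 members (50.0%), beside 36.8% of all tested genes. With the row factor divided out these were 30 members (51.8% of all tested genes) and 24 members (40.5%), and the differences were not tested. Fold changes of some members not called shrank by over 1.5 times without H2: Pdhb to -0.16, Slc16a1 to -0.10, Pfkp to -0.08 and Hk1 to -0.07. Others grew by over 1.5 times, such as Pdha1 from 0.12 to 0.26, Pdhx from 0.17 to 0.27 and Pfkfb3 from 0.12 to 0.21. Without H2, 26 of 38 members had a fold change below 0, where 49.3% of all tested genes did, and the median was -0.13. The members called were then Slc16a3, Slc2a3, G6pdx and Hk2, beside 4.67% of all tested genes. With both H2 and N2 left out they were Slc16a3 and Pfkfb4, beside 3.99% of all tested genes. The summed mast cell and basophil markers and the summed ILC2 markers were also lowest in H2, and their part in these values was not tested.

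**Figure D5:**
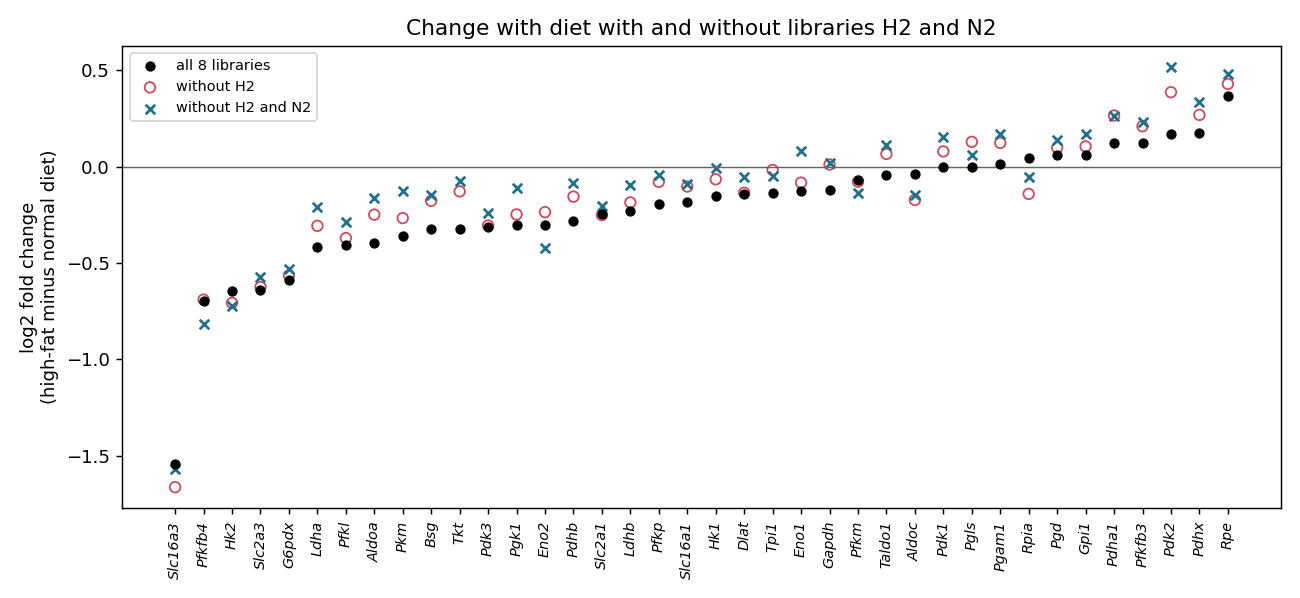
Log2 fold change (high-fat minus normal diet) of the 38 tested members with all 8 libraries (black), without H2 (open red circles) and without H2 and N2 (blue crosses), ordered by the first. The 5 lowest genes, from Slc16a3 to G6pdx, stay between -1.66 and -0.53, while Ldha, Aldoa and Pkm move from -0.42, -0.40 and -0.36 to -0.21, -0.16 and -0.13 without both libraries.

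Other genes of glucose metabolism were taken from 8 lists with 102 genes, of which 72 were tested. Of these 3 rose and 1 fell, where 0.975% of all tested genes were called higher and 1.88% lower. Among 18 tested regulators of glycolysis Irf4, a transcription factor of activated lymphocytes, rose by 1.23 on the log2 scale (3.05 ± 0.73 and 8.69 ± 2.61 FPKM, adjusted p = 0.00735), and Arrdc4, a glucose-induced arrestin that restrains glucose uptake, rose by 0.81 (adjusted p = 0.0251). Hif1a, the oxygen-sensing activator of glycolytic genes, was at 94.6 ± 16.1 and 85.2 ± 12.8 FPKM and was not called (adjusted p = 0.705). Of 8 other pentose phosphate genes Shpk, the kinase of sedoheptulose, rose by 0.93 (adjusted p = 0.0321). Of 17 genes of the glycogen and hexosamine branches Gfpt1, the entry enzyme of hexosamine synthesis, fell by 0.59 (adjusted p = 0.0386). None was called among 3 other glucose transporters, 12 other glycolytic enzymes, 4 genes of gluconeogenesis, 5 other lactate and pyruvate carriers and 5 other pyruvate dehydrogenase genes. The most expressed of these were Slc2a8 at 35.6 ± 10.7 and 30.1 ± 5.07 FPKM, Adpgk at 58.6 ± 7.53 and 57.1 ± 12.5 FPKM, G6pc3 at 15.3 ± 4.36 and 13.2 ± 2.42 FPKM, Emb, another chaperone of lactate transporters, at 431 ± 80.3 and 412 ± 21.99 FPKM, and Dld at 39.0 ± 4.95 and 39.2 ± 4.48 FPKM.

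Markers of some other cell types moved with diet beside Slc16a3, Slc2a3 and G6pdx. For the counts of markers below, 0.975% of all tested genes were called higher and 1.88% lower. The 12 endothelial markers summed to 39.2 to 149 FPKM in H1 to H4 and 19.0 to 25.6 FPKM in N1 to N4, with 3 of 5 tested called higher (Vwf, Esam and Fabp4). The 12 macrophage markers summed to 12.3 to 13.3 FPKM in H1 to H4 and 8.42 to 10.1 FPKM in N1 to N4. None was called of 3 tested (median log2 fold change 0.07), and 5 were below 1 FPKM in all libraries. Among those not tested, Mertk, C1qb and C1qc were higher in every high-fat library. Adgre1 was lower in every one (1.43 ± 0.35 and 0.38 ± 0.32 FPKM). Of 2 tested dendritic cell markers H2-Ab1 rose and Xcr1 fell. Of the ILC2 markers 3 of 18 fell (Il5, Il2ra and Gata3). The sums of T cell markers (1021 to 1943 FPKM in H1 to H4, 1076 to 1366 FPKM in N1 to N4) and of B cell markers (108 to 870 and 120 to 587 FPKM, likewise) overlapped between the diets, with none called. Of the 12 tested T cell markers only 2 had a fold change below 0, where 52.1% of all tested genes did. Their median was 0.77, where that of all tested genes was -0.02. Hemoglobin and other erythroid genes summed to 2344 and 4484 FPKM in N3 and N4 and to 46.5 to 377 FPKM elsewhere. No marker was at 0 in all libraries, and the part of these cells in the results was not tested.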

How the data were processed

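RNA of 8 libraries (4 per diet) was made into full-length cDNA with the SMART-Seq HT kit and into libraries with a TruePrep kit, per the labels' protocols, which leaves strand unmarked. HISAT2, Cufflinks and the build mm10 are listed, per the submitters' processing notes, with no version. Values were deposited as FPKM per the file headers, but 14605 of 39527 genes hold values below 0 and were left out. Within a library the value of 1 read takes 10 sizes (0.863 to 1.18, different in each library) that repeat down the rows; dividing by them gave whole reads for 100% of 24107 genes above 0 (relative tolerance 1e-06).

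The 11483 genes with at least 1 FPKM in at least 4 libraries were fitted as log2(FPKM + 1) with limma 3.58.1 in R 4.3.3 (diet only, eBayes with trend and robust, two-sided, Benjamini-Hochberg adjustment over all of them). In simulated data with 200 changed genes among 11483, 72% of 2-fold and 99% of 4-fold changes were recovered, and 4.47% of calls were false. The simulated errors were independent between genes and libraries, without shifts shared by many genes of a library. These rates may therefore not hold for the real libraries. Intervals are at 95%. A fold change on this scale understates that of low genes.

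The members and lists were chosen with earlier results of these data known. Called members, members whose diets did not overlap and the most abundant of each role are given by library. From the other lists up to 3 called genes per direction, or the most expressed tested one, are named; Hif1a was chosen after its values were seen. Coordinates are those of GENCODE M21, and promoter sequences those of RefSeq (GRCm38.p6; 38 of 40 members matched). Alternatives were the pseudocount, filters, scalings, moderation, library weights, the replicate number as a block, recovered reads and leaving out libraries.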

Additional observations from a re-analysis of the deposited data

Results flagged for a closer look

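Among 80 groups of 4 values (40 genes in each diet), 5 held 1 library far from the other 3, where chance alone gives about 1 in 20. In N2, Eno1 was at 794 FPKM (others 489 to 525 FPKM), Pdk2 at 10.2 FPKM (others 6.46 to 7.01 FPKM) and Pdhx at 5.54 FPKM (others 4.40 to 4.44 FPKM). In N3, Pdk4 was at 0.189 FPKM (others 0.0247 to 0.0271 FPKM), which is 8 reads against 1 in each of the others. In H3, Pdk3 was at 15.3 FPKM (others 13.9 to 14.0 FPKM).
With the row factor divided out, which was tried after seeing the data, only Pdk4 in N3 (0.193 FPKM) and Pdhx in N2 (5.93 FPKM) of these 5 still stood apart, and 4 of the 80 groups did in all. Eno1 was then at 670 FPKM in N2 against 481 to 608 FPKM, Pdk2 at 8.57 FPKM in N2 against 6.91 to 7.48 FPKM, and Pdk3 in H3 at 15.1 FPKM lay within the other high-fat libraries (11.8 to 16.1 FPKM). As a share of recovered reads, Eno1 was at 0.0867% in N2 and 0.0873% in N4.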

How the results depend on the processing

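Slc16a3 was the only member called under each of the 20 alternatives. The count of members called (3 of 38, beside 2.86% of all tested genes) was 1 with no filter on low values (0.539%), without the trend and robust options (1.92%) and with a replicate block (1.66%). It was 5 under quantile normalization (3.74%) and with library weights (5.65%), and 1 to 4 when a library was left out (1.12% to 4.67%). Dividing out the row factor gave 4 (4.98%), with Hk2 added. With a mean of at least 5 FPKM, 3 of 33 members were called, beside 6.17% of 7483 genes. In that setting 25 members had a fold change below 0, beside 58.8% of all genes. All members called in these settings were lower on the high-fat diet. Limma on recovered reads, scaled to library totals or at equal medians, was chosen after seeing the data. Scaled to library totals, 6 members were called (Rpe among them higher) and 19 had a fold change below 0, beside 31.2% of all genes. Recovered reads at equal medians gave 9 called, all lower: Aldoa, G6pdx, Hk2, Pfkfb4, Pfkl, Pkm, Slc16a3, Slc2a3 and Tkt. In that fit 28 members had a fold change below 0, beside 51.5% of all genes, and 9.23% of all genes were called. Over all 11483 tested genes 328 were called, and 649 with library weights, 191 with the replicate block and 129 to 536 without 1 library. With no filter 130 of 24107 genes were called, and with the row factor divided out 571 of 11476. Of 12661 genes, 1391 were called with recovered reads and 1169 with recovered reads at equal medians. Recovered reads put the median of all genes at 0.17, with 1037 higher and 354 lower, where 28 of 38 members lay below that median; quantile normalization gave 226 higher and 204 lower, without H2 there were 255 and 281, and without both H2 and N2 242 and 216.

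The 15 members whose fold changes turned were all not called with all libraries. With recovered reads, the values were 0.067 for Hk1, 0.14 for Pfkm, 0.15 for Aldoc, 0.057 for Tpi1, 0.12 for Gapdh, 0.083 for Eno1, 0.11 for Pdk1, 0.072 for Dlat, 0.19 for Pgls and 0.20 for Taldo1. With recovered reads at equal medians, the values were -0.095 for Pgam1, 0.011 for Pgls and 0.017 for Taldo1. Under quantile normalization, the values were 0.016 for Tpi1, 0.048 for Gapdh, 0.066 for Eno1, 0.058 for Pdk1, 0.14 for Pgls and 0.12 for Taldo1. Without both H2 and N2, the values were 0.021 for Gapdh, 0.081 for Eno1, 0.15 for Pdk1, 0.058 for Pgls, 0.11 for Taldo1 and -0.055 for Rpia. With the row factor divided out, the values were -0.070 for Pgam1, 0.031 for Pgls and 0.037 for Taldo1. At equal library medians, the values were 0.0072 for Pdk1 and 0.0083 for Pgls. With library weights, the values were 0.12 for Pdk1 and 0.011 for Pgls. Leaving out 1 library gave ranges of -0.021 to 0.13 for Gpi1, -0.16 to 0.085 for Pfkm, -0.21 to 0.10 for Aldoc, -0.31 to 0.011 for Gapdh, -0.045 to 0.12 for Pgam1, -0.19 to 0.040 for Eno1, -0.097 to 0.078 for Pdk1, -0.0023 to 0.26 for Pdha1, -0.16 to 0.13 for Pgls, -0.020 to 0.12 for Pgd, -0.18 to 0.065 for Taldo1 and -0.14 to 0.19 for Rpia. The cause was not tested.

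The replicate numbers are not shown to pair libraries: the correlation of same-numbered libraries' deviations was between -0.25 and 0.08. The planned edgeR test of recovered reads was not run, since the deposited values are not counts, and limma on those reads took its place. Depth limits Pdk4, Hk3, Aldoc and Rpia, each at no more than 50 reads in a library.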
